A study of Mus musculus with 12 samples.

Results

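The circadian clock genes described here are Per1, Per2, Per3, Dbp, Nr1d1, Nr1d2, Arntl, Clock, Cry1 and Tef, measured in the brain of aged 3×TgAD mice that drank amitriptyline or water. They were taken as every probe that carries one of these 10 symbols, which gave 17 probes of the 25697 on the array, and 10 of its 18097 gene symbols. 3×TgAD is a transgenic mouse model of Alzheimer's disease that develops Aβ deposits and tau pathology with age, and all groups carried it, so no comparison with non-transgenic mice was possible. Male mice were 14 months old at the start and 18 months old when tissue was taken. The AMI groups received amitriptyline-hydrochloride, a tricyclic antidepressant, at 100 µg per g body weight in the drinking water for 4 months, and the vehicle groups received water alone. Per the study's methods, both treatments were also injected with BrdU, a label of dividing cells, midway through. RNA from the hippocampus and from the cortex was hybridised to Illumina mouse bead arrays, with 3 arrays for each tissue and treatment and 12 in all. Both treatments were housed on a 12 hr light-dark cycle. The time of day at which tissue was collected is not given in the sources used here, and neither is which mouse gave which sample, so p-values measure the spread between these samples only.

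The mammalian clock is a feedback loop of transcription. Clock and Arntl (also called Bmal1) encode partner proteins that bind E-box elements and switch on the Per and Cry genes, whose products return to the nucleus and inhibit that pair. A side loop runs through Nr1d1 and Nr1d2, the Rev-erb receptors, which repress Arntl through elements that the ROR receptors activate. Dbp and Tef are PAR bZIP factors, outputs of the loop that act through D-box elements. Most of these transcripts rise and fall over the day in the brain as in other tissues, so a level in tissue taken at an unknown hour is a level at some phase of that cycle.

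The elements of the loop can be read in the promoters of the measured genes. RefSeq promoters (GRCm38.p6, 250 bases before to 50 after the start) were matched by symbol for 9 of the 10 genes, 14 promoters in all (all but Per2). The E-box CACGTG, which reads the same on both strands, lay in 4 of these 14 promoters and in 7.15% of all 32851. The D-box TTATGTAA or its reverse complement TTACATAA lay in 1, against 0.938% of all, and a ROR element, searched on both strands, lay in 1, against 0.384% of all. The windows around these letters follow, each on the strand of its gene, with the element in capitals. They show which of the measured genes carry which element close to a start, and a match in letters is not a measured binding site.
Per1 E-box, chr11:69098763-69098808, plus strand: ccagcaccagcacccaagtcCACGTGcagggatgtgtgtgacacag
Cry1 E-box, chr10:85185089-85185134, minus strand: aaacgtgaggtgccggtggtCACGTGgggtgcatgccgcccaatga
Tef E-box, upstream promoter, chr15:81802526-81802571, plus strand: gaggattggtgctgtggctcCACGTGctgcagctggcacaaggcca
Tef E-box, downstream promoter, chr15:81811256-81811301, plus strand: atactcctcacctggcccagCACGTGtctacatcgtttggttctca
Per3 D-box, upstream copy, chr4:151044843-151044890, minus strand: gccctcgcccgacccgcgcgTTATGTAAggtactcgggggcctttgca
Per3 D-box, downstream copy, chr4:151044796-151044843, minus strand: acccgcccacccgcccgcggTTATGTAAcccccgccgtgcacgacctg
Arntl ROR element, chr7:113207529-113207555, plus strand: gaaggcagAAAGTAGGTCAgggacgga
The Per3 promoter held both D-box copies, and no E-box of these letters lay in the same window. The E-box of Per1 began 166 bases before the start and that of Cry1 60 bases before it. The Arntl element lay 26 bases after the start, within the first transcribed bases.

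Not every probe gave a signal above background. Of the 17 probes, 10 were detected on all 12 arrays (detection p of 0.05 or less), and these represent 8 genes. A probe was tested in a tissue when it was detected on at least 3 of its 6 arrays, which 11 clock probes met in the hippocampus and 12 in the cortex. Cry1, one of the main repressors of the loop, was represented by 1 probe, which was detected on 0 of 12 arrays at signals of 41.5 to 63.8, so nothing can be said of its level. The further probes of Clock (ILMN_2589603), Nr1d2 (ILMN_2602387), Per2 (ILMN_1258523) and Tef (ILMN_2715400) were also not tested, with detection on at most 1 array each. Per3, the third Period gene, was detected on 2 of 6 hippocampal and 4 of 6 cortical arrays, at signals of 56.5 to 195, and was tested in the cortex only and between tissues. The probe positions in the array's annotation come without a named build, and it lists the Nr1d2 probes at places too far apart for one gene, so positions are not given for probes.

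Values below are log2 levels relative to the mean of all probes on the same array, after each array's log2 signals were brought to a common SD. A level of 0 is the array mean, and a difference of 1 stands for a ratio of about 2. Levels of different probes are not comparable with each other, since probes differ in how brightly they bind.

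The tissue labels were checked against marker genes. The hippocampal markers Fibcd1, Prox1 and Dsp were higher in the hippocampus, by 2.75, 1.17 and 1.13, and the cortical markers Mef2c, Tbr1 and Cux2 were lower there, by -2.13, -1.87 and -0.77. Fezf2 went against its list, at 0.81 higher in the hippocampus. Markers of the striatum were well above the hippocampal level in the cortical samples. Their mean level was 1.88 to 2.48 against 0.31 to 0.82 over the 4 markers tested (Ppp1r1b, Rgs9, Drd1 and Drd2). Markers of the choroid plexus had a mean level of 3.69 on hippocampal vehicle array 3 and of 0.60 to 1.06 on the other hippocampal arrays. In the cortex their mean level ranged from 0.18 to 2.60. The 2 hippocampal arrays numbered 1, of AMI and of vehicle, stood apart from the other 4 hippocampal arrays, with an SD of log2 signals of 1.51 and 1.53 against 1.71 to 1.85.

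**Figure D1:**
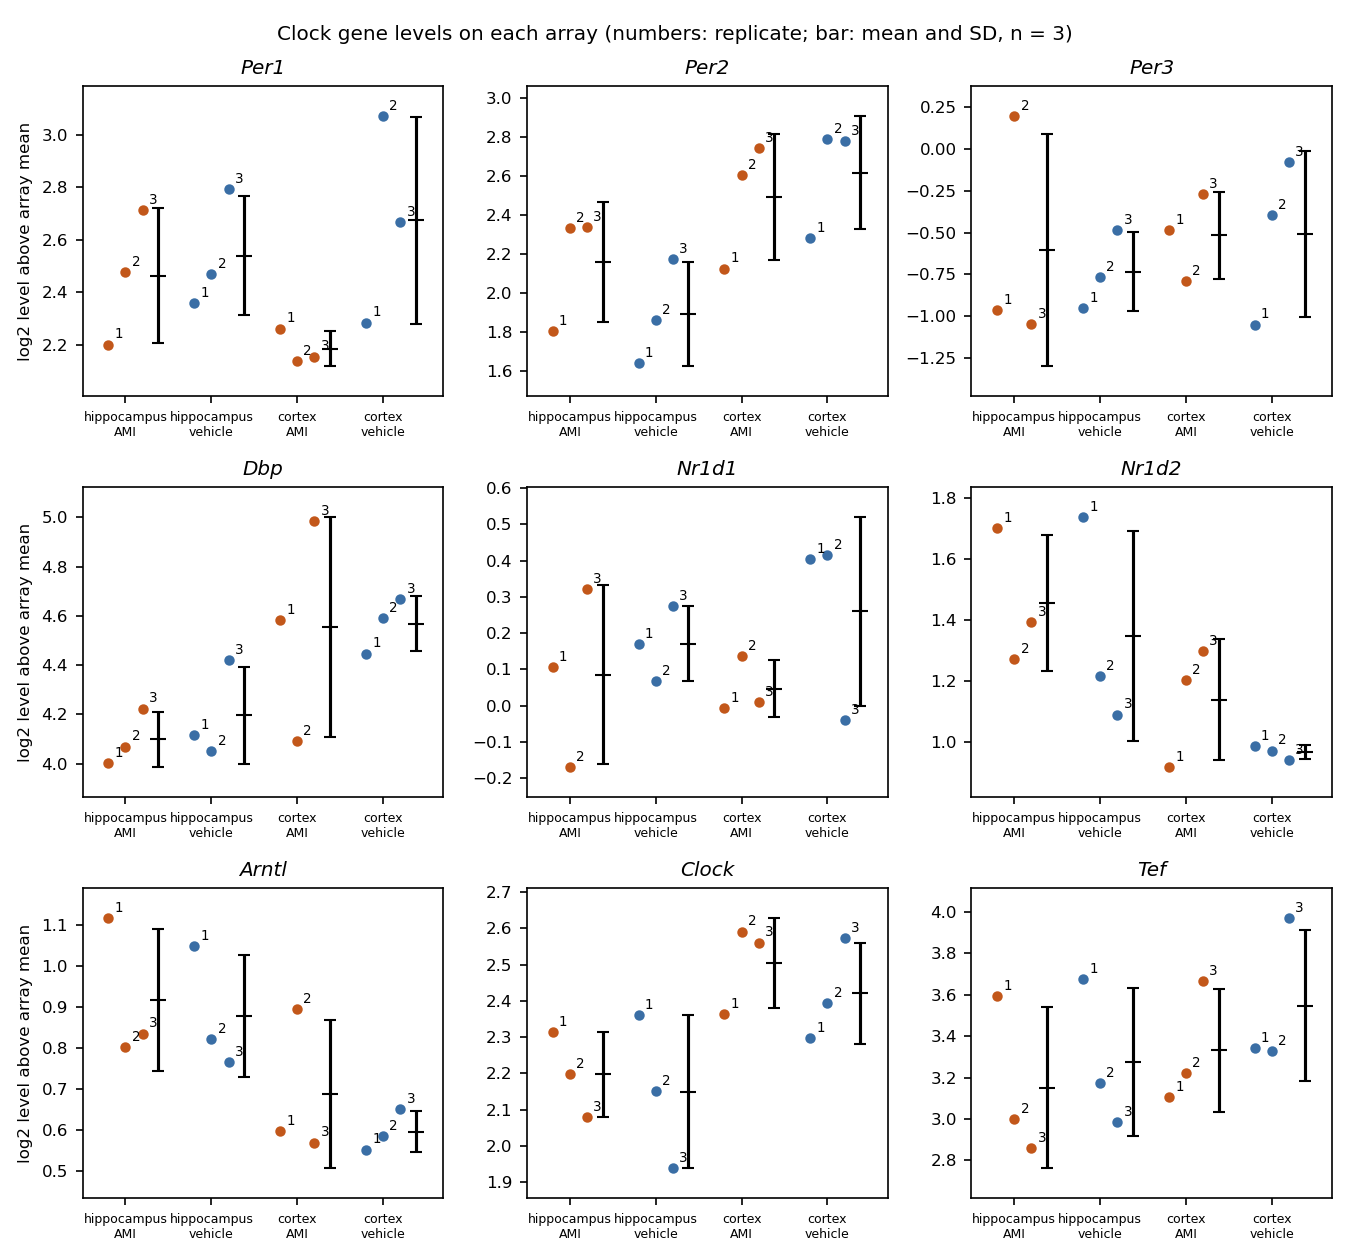
Log2 level of each clock gene above the array mean (vertical axes, 1 scale per gene) on the 12 arrays, with orange points for AMI, blue points for vehicle, and bars at the mean with its SD (n = 3). Each gene is shown by its brightest probe; Cry1, not detected on any array, is left out. In the hippocampus the points numbered 1 are lowest for Per1 and Per2 and highest for Nr1d2, Arntl, Clock and Tef.

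In the hippocampus, no clock gene differed between AMI and vehicle beyond the spread between arrays. Of 11 probes tested, 0 passed an adjusted p of 0.05 (limma, Benjamini-Hochberg over all 13163 probes), where 0% of all probes did. At an unadjusted p under 0.05 there were also 0, against 2.35% of all probes, and in 0 did the AMI and vehicle arrays lie apart without overlap, against 7.89% of all. Differences ranged from -0.13 to 0.31, with 5 probes higher and 6 lower under AMI, and their median was -0.0056 beside 0.0134 over all tested probes. The 95% intervals reached 0.26 to 0.52 to either side of a difference, so changes within such bounds were not detectable with 3 arrays against 3. These intervals are for single probes, and passing the adjustment over all probes would take larger changes.

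Per2, a repressor of the loop that light also induces, had the largest hippocampal difference. Its probe ILMN_2987862 read 1.81, 2.33 and 2.34 on the AMI arrays and 1.64, 1.86 and 2.18 on the vehicle arrays, which overlap. The difference was 0.27 (SE 0.18, 95% interval -0.15 to 0.68, limma adjusted p = 0.9996). The other probe, ILMN_2987863, read 1.36, 1.87 and 2.01 under AMI and 1.20, 1.39 and 1.73 under vehicle, a difference of 0.31 (SE 0.19).

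Because hippocampal AMI and vehicle arrays of the same number deviated together, the comparison was also made with the number as a block. That pairing was read from these same data and not from the labels, so the p-values with the block are descriptive only. Within each number, Per2 was higher on the AMI array, by 0.16, 0.47 and 0.16 for the first probe and by 0.16, 0.48 and 0.28 for the second. With the block, both Per2 probes had an unadjusted p under 0.05, at 0.0179 and 0.00801, as did 8.08% of all probes, and neither passed adjustment (limma adjusted p = 0.608 and 0.584). These were the only 2 of the 11 clock probes under that threshold with the block.

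The other hippocampal genes were close to even between treatments. For Dbp, an output factor of the loop, the deposited signals were 1458, 4324 and 3745 under AMI and 1875, 3303 and 3930 under vehicle. After scaling these became 4.00, 4.07 and 4.22 against 4.11, 4.05 and 4.42, a difference of -0.097 (SE 0.12). The raw signals of the arrays numbered 1 lay below the other 4, and after scaling they no longer did.

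Per1, a Period gene that light and glucocorticoids induce, read 2.20, 2.48 and 2.71 under AMI and 2.36, 2.47 and 2.79 under vehicle (ILMN_2813484), a difference of -0.077 (SE 0.16). Nr1d1, a Rev-erb repressor, read 0.11, -0.17 and 0.32 against 0.17, 0.067 and 0.28, and the difference was -0.085 (SE 0.13). Its relative Nr1d2 read 1.70, 1.27 and 1.39 against 1.74, 1.22 and 1.09, and the difference was 0.11 (SE 0.18). In all 3 genes the AMI and vehicle ranges overlapped.

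The activators were as close. Arntl read 1.12, 0.80 and 0.84 under AMI and 1.05, 0.82 and 0.77 under vehicle, a difference of 0.040 (SE 0.12), and Clock (ILMN_2610973) read 2.31, 2.20 and 2.08 against 2.36, 2.15 and 1.94, a difference of 0.047 (SE 0.13). For Tef, the second PAR bZIP factor, the levels were 3.59, 3.00 and 2.86 against 3.67, 3.17 and 2.98, with a difference of -0.13 (SE 0.22). Tef was lower under AMI in 3 of 3 same-number pairs, by -0.080, -0.17 and -0.12. With the number as a block its limma adjusted p was 0.680. The count of pairs is descriptive only, as the share of all probes alike in 3 of 3 pairs is not given.

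In the cortex, 0 of 12 clock probes passed an adjusted p of 0.05 between AMI and vehicle (limma), as 0% of all 12944 tested probes did. There were 3 probes higher and 9 lower under AMI, with a median difference of -0.071 beside 0.023 over all tested probes. 1 probe had an unadjusted p under 0.05, against 6.28% of all probes. In 2 probes the groups lay apart without overlap, against 12.2% of all probes in either direction and 4.13% in the downward direction.

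Both of the latter probes report Per1. Probe ILMN_2813484 read 2.26, 2.14 and 2.15 on the AMI arrays and 2.28, 3.07 and 2.67 on the vehicle arrays, so every AMI array lay below every vehicle array, although the arrays numbered 1 differed by only -0.023. The difference was -0.49 (SE 0.18, 95% interval -0.90 to -0.080), with an unadjusted p of 0.0244 and an adjusted p of 0.756 in limma, and the exact two-sided permutation test gave p = 0.1, the smallest value that 3 arrays against 3 allow. The second probe, ILMN_2813487, read 0.80, 0.88 and 0.70 under AMI and 0.89, 1.503 and 0.94 under vehicle, a difference of -0.32 (SE 0.16, adjusted p = 0.789).

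The Per1 difference leaned on vehicle array 2. Without it the difference at ILMN_2813484 was -0.29, and without vehicle array 1 it was -0.68. The probes target the same transcript and share the arrays, so their agreement is not independent. With the replicate number as a block, limma gave an unadjusted p of 0.0138 for ILMN_2813484 and 0.0310 for ILMN_2813487. Neither passed adjustment (limma adjusted p = 0.509 and 0.540). The p-values with the block are descriptive only, since same-number cortical arrays did not deviate together in every pair. The share of all cortical probes with unadjusted p-values as low under the block is not given.

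Markers of the striatum were also lower in this comparison, without passing adjustment. All 4 tested markers were lower on the cortical AMI arrays (Rgs9 -0.63, Drd2 -0.54, Ppp1r1b -0.32, Drd1 -0.23). Their limma adjusted p was 0.756 to 0.860. In 2 of them the groups did not overlap, where 4.13% of all probes lay apart downward. The mean level of the 4 markers was 1.88 to 2.10 under AMI and 2.37 to 2.48 under vehicle. Adora2a was not tested. The immediate early genes, a group that activity induces together with Per1, had mean levels of 1.77 to 2.43 under AMI and 1.64 to 2.49 under vehicle. The 7 tested glucocorticoid-induced genes had mean levels of 1.81 to 1.99 under AMI and 1.72 to 1.84 under vehicle, and 0 of them passed an adjusted p of 0.05. All 7 differences were above 0 (median 0.065, beside 0.023 over all tested probes). The groups did not overlap for Cdkn1a alone, at 0.43 (limma adjusted p = 0.756), where 12.2% of all probes lay apart in either direction. The part of any of these groups in the Per1 difference was not tested, and in bulk tissue fewer cells of a type and less RNA per cell cannot be told apart.

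Per2 did not repeat its hippocampal direction in the cortex. It read 2.13, 2.60 and 2.74 under AMI and 2.28, 2.79 and 2.78 under vehicle (ILMN_2987862), a difference of -0.13 (SE 0.19), with the AMI array lower in 3 of 3 same-number pairs. Whether AMI acted on it differently in the 2 tissues was tested directly as an interaction, which was 0.39 for this probe (95% interval -0.23 to 1.02) and 0.46 for the other (limma adjusted p = 0.9999). For Per1 the interaction was 0.41 (95% interval -0.15 to 0.98, limma adjusted p = 0.9999). Of 11 clock probes, 0 had an interaction past an adjusted p of 0.05, as for 0% of all probes, and 0 had an unadjusted p under 0.05, as 3.03% of all probes did.

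The remaining cortical genes overlapped between treatments. Dbp read 4.58, 4.09 and 4.99 under AMI and 4.45, 4.59 and 4.67 under vehicle, a difference of -0.015 (SE 0.20), and its AMI arrays spread over a range wide enough to enclose all vehicle arrays. Tef read 3.11, 3.22 and 3.67 against 3.34, 3.33 and 3.97, a difference of -0.22 (SE 0.20), and was lower in 3 of 3 same-number pairs. Same-number arrays of the cortex did not deviate together in every pair, so those numbers are not taken to pair the samples. The 3 of 3 counts of Tef and Per2 in the cortex are therefore descriptive only.

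Nr1d1 read -0.0070, 0.14 and 0.0089 under AMI and 0.40, 0.42 and -0.040 under vehicle (difference -0.21, SE 0.14), with vehicle array 3 below all AMI arrays. Nr1d2 read 0.92, 1.20 and 1.30 against a narrow 0.99, 0.97 and 0.94 (difference 0.17, SE 0.12). Arntl read 0.60, 0.90 and 0.57 against 0.55, 0.59 and 0.65 (difference 0.091, SE 0.11). AMI array 2 alone lay above all vehicle arrays for Arntl.

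Clock (ILMN_2610973) read 2.36, 2.59 and 2.56 against 2.30, 2.39 and 2.57 in the cortex, a difference of 0.083 (SE 0.11). Per3, near the limit of detection, read -0.49, -0.79 and -0.27 under AMI and -1.05, -0.40 and -0.077 under vehicle, a difference of -0.0073 (SE 0.24). Its vehicle arrays spanned the whole range of the AMI arrays.

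**Figure D2:**
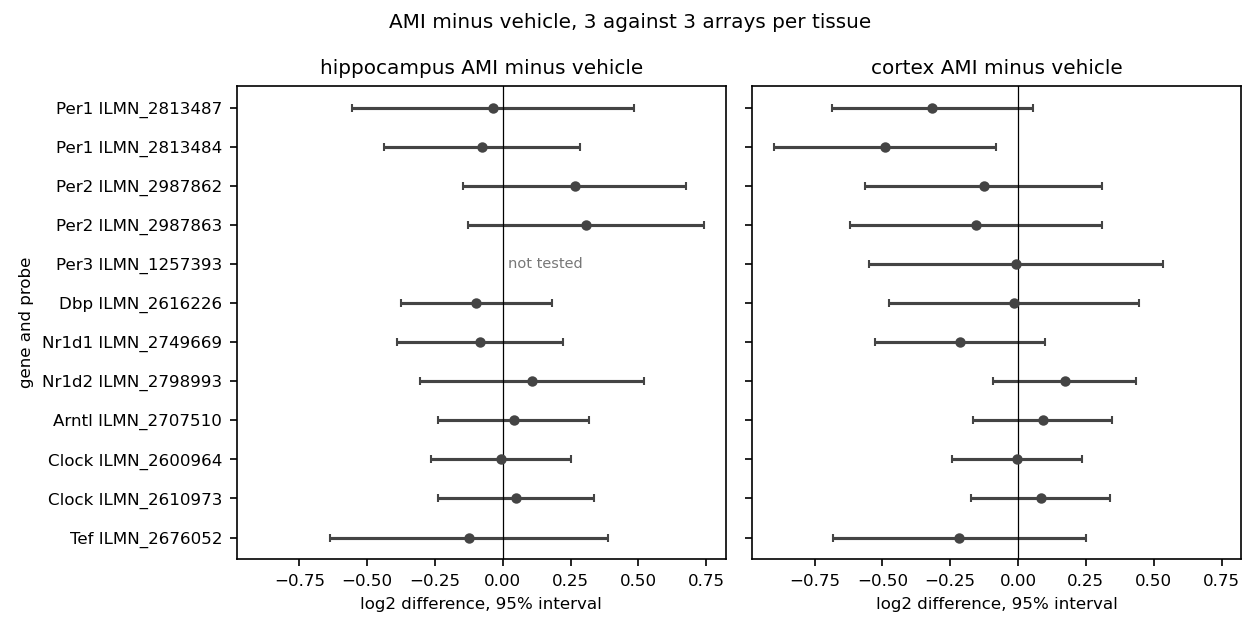
AMI minus vehicle difference of each tested clock probe (log2, horizontal axes) in the hippocampus and the cortex, as points with 95% intervals from limma over 3 arrays against 3. All intervals include 0 except that of Per1 ILMN_2813484 in the cortex, which runs from -0.90 to -0.080 and did not pass adjustment.

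Several clock genes spread widely between arrays of 1 group, while others lay near the median probe. The residual SD, which is the spread left after the AMI and vehicle means are fitted, had a median of 0.138 over all tested hippocampal probes. It was 0.381 for Per1 ILMN_2813487 and 0.374 for Tef, wider than 97.0% and 96.7% of tested probes. Per2 followed at 0.308 and 0.287 and Nr1d2 at 0.289, each wider than at least 92.4% of probes, while Dbp (0.161), Arntl (0.162) and Clock (0.171 and 0.138) lay nearer the median.

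Much of this hippocampal spread went with the replicate number. With the number fitted as well, the residual SD of Tef was 0.033 in place of 0.374, that of Arntl 0.036 in place of 0.162, and those of Per1 0.058 and 0.098 in place of 0.242 and 0.381. The Clock probe ILMN_2600964 was the exception, at 0.159 in place of 0.138. Same-number hippocampal arrays deviated together over all tested probes as well (correlations 0.61, 0.30 and 0.29). The residual SD of all probes with the number fitted is not given, so the fall is not shown to be particular to the clock genes.

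**Figure D3:**
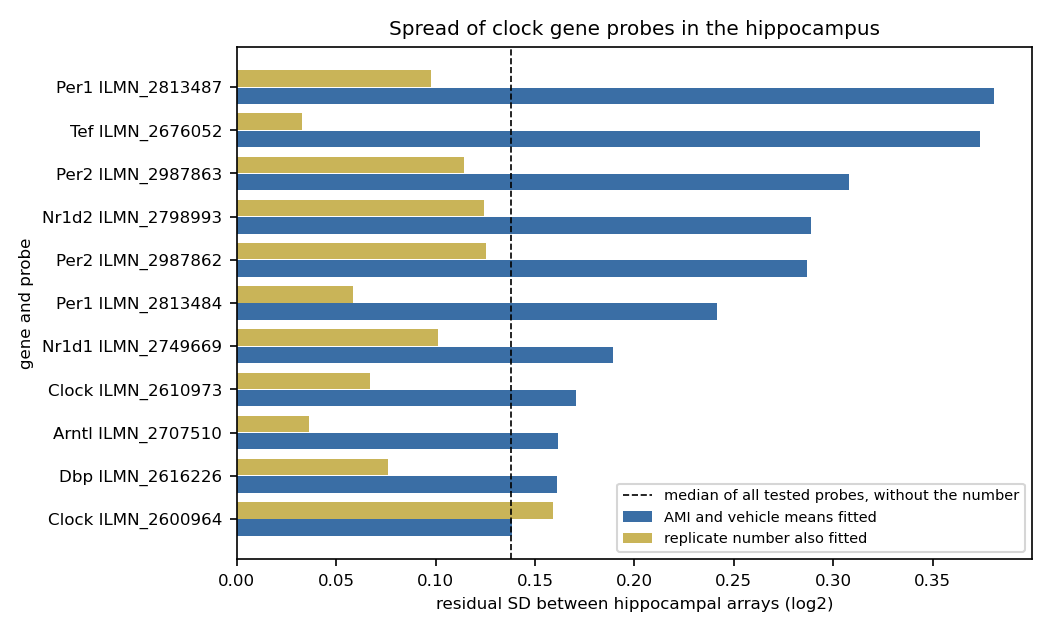
Residual SD of each clock probe between the 6 hippocampal arrays (log2, horizontal axis), in blue with AMI and vehicle means fitted and in yellow with the replicate number fitted too; the dashed line is the median of all tested probes without the number, 0.138. The yellow bars are shorter for every probe except Clock ILMN_2600964, and no reference over all probes is shown for them.

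The hippocampal arrays numbered 1 stood at one end of the range for several of these genes, as they did for many probes of the array. Both lay below the other 4 arrays for 4 of 11 clock probes, those of Per1 and Per2. That is near the 31.7% of all tested probes that did so. Both lay above the other 4 for Nr1d2, Arntl, Clock ILMN_2610973 and Tef, again 4 of 11, where 12.4% of all probes did so. Tef, for example, stood at 3.59 and 3.67 on these arrays and at 2.86 to 3.17 on the others, and Per1 ILMN_2813487 at 0.74 and 0.93 against 1.29 to 1.61.

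Scaling changed which genes took part. After quantile normalization, the same 4 genes lay above and Per1 (both probes) and Dbp lay below, while Per2 no longer did (14.1% of all probes below, 15.3% above). After median centring, which leaves the narrower range of these arrays as it is, both Per1 and both Per2 probes and Dbp lay below, as did 64.4% of all probes, and 0 clock probes lay above. Per1 was thus low on the arrays numbered 1 under all 3 scalings, and Nr1d2, Arntl, Clock and Tef were high there under the 2 scalings that make the arrays' ranges alike. The part of signal range in this pattern was not tested.

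In the cortex the wide genes were partly others. Per3 had a residual SD of 0.397, Tef of 0.333, Per2 of 0.331 and 0.307 and Dbp of 0.326, each above at least 92.7% of tested probes, against a median of 0.141. Arntl (0.132), Clock (0.132 and 0.114) and Nr1d2 (0.141) were at or under the median there. Per1, among the widest in the hippocampus, had cortical residual SDs of 0.283 and 0.249, wider than 90.5% and 86.3% of tested probes. So Per1, Per2 and Tef were each wider than at least 86.3% of tested probes, whichever the tissue. Nr1d2 reached that share in the hippocampus only. Dbp and Per3 reached it in the cortex, and Per3 was not tested in the hippocampus. Nr1d1 stood lower, wider than 73.5% of hippocampal and 73.3% of cortical probes.

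Tef had the widest spread of the clock genes detected on all 12 arrays once each tissue's mean was removed (SD 0.32), and was used to look for genes of like pattern. The 5 most like it over the 12 arrays, among 10979 probes ranked, were Adam23 (r = 0.95), Ptp4a2 (0.95), Tpd52 (0.93), Ppm1b (0.93) and Cops7b (0.92). These correlations are a description, over points that share the arrays' signal range, and they depended on the scaling. Under quantile normalization the 5 genes had r between 0.79 and 0.90. Under median centring the same 5 genes had r of 0.60, 0.42, 0.42, 0.34 and 0.31, and Adam23, the nearest of them, ranked 66. Of the clock genes, Clock was nearest to Tef at rank 608 (r = 0.71), then Nr1d2 at 1094 (r = 0.56) and Arntl at 1589 (r = 0.42). Per1 and Per2 had negative values, from -0.58 to -0.18, and those of Per2 turned to 0.17 and 0.14 under median centring.

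Between the tissues, 6 of 12 clock probes differed at an adjusted p under 0.05, which is 50% beside 43.1% of all 13677 tested probes, so a call is common in this comparison. In 4 the hippocampus was lower (18.7% of all probes) and in 2 it was higher (24.4% of all). In 0 clock probes did the 6 hippocampal and 6 cortical arrays lie apart without overlap, where 22.3% of all probes did. The tissues were exported in separate tables by different versions of the analysis software, so tissue and export software cannot be told apart.

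Per2 was lower in the hippocampus. It ranged from 1.64 to 2.34 on hippocampal arrays and from 2.13 to 2.79 on cortical ones, with means of 2.03 and 2.55, and the difference was -0.53 (SE 0.14, limma adjusted p = 0.0103). The second probe gave -0.51 (adjusted p = 0.0181). Dbp ranged from 4.00 to 4.42 in the hippocampus and from 4.09 to 4.99 in the cortex, a difference of -0.41 (SE 0.13, adjusted p = 0.0189). Cortical AMI array 2, at 4.09, was the array of the cortex that fell inside the hippocampal range.

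Clock (ILMN_2610973) ranged from 1.94 to 2.36 in the hippocampus and from 2.30 to 2.59 in the cortex, a difference of -0.29 (SE 0.086, adjusted p = 0.0155). Its partner Arntl went the other way, from 0.77 to 1.12 in the hippocampus against 0.55 to 0.90 in the cortex, a difference of 0.26 (SE 0.084, adjusted p = 0.0256). The Arntl repressor Nr1d2 was also higher in the hippocampus, at 1.09 to 1.74 against 0.92 to 1.30, by 0.35 (SE 0.12, adjusted p = 0.0263). The ranges overlap in all 3 genes.

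The other genes did not pass. Per1 differed by 0.072 and 0.28 at its probes (adjusted p = 0.690 and 0.161), Tef by -0.23 (95% interval -0.59 to 0.14), Nr1d1 by -0.025 (-0.24 to 0.19) and Per3 by -0.16 (-0.63 to 0.31). The dim Clock probe ILMN_2600964 stood at 0.16, in the direction opposite to the brighter probe (adjusted p = 0.110), so the probes of Clock disagree.

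These calls rested on the scaling. Median centring moved the median of all probes to 0.19 higher in the hippocampus, from 0.026, and turned Dbp to 0.17 and Clock to 0.043. Relative to that shift they stood at -0.016 and -0.14, Per2 at -0.36 and -0.39, Nr1d2 at 0.36 and Arntl at 0.22, so all 6 called probes kept their side of the median probe, Dbp by little. Median centring called 2 probes, those of Nr1d2 and Arntl, and quantile normalization 3, those of Clock and both of Per2.

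Without the hippocampal arrays numbered 1, the count was 3 in place of 6. Nr1d2 was then 0.19 (adjusted p = 0.0851), Arntl 0.16 (0.108), Dbp -0.37 (0.0699) and Per2 ILMN_2987862 -0.38 (0.0508), while Clock was -0.37 (0.00487). The other 2 calls were new, Tef at -0.44 (0.0343) and Per1 ILMN_2813487 at 0.48 (0.0105), so of the 6 calls only that of Clock was kept without those arrays. Within 1 treatment, with 6 arrays, the hippocampus minus cortex difference of Per2 was -0.33 on AMI arrays and -0.72 on vehicle arrays. It was -0.46 and -0.37 for Dbp, -0.31 and -0.27 for Clock, 0.32 and 0.38 for Nr1d2, and 0.23 and 0.28 for Arntl. The direction was therefore the same within each treatment for these 5 genes, with 0 clock probes called in AMI and 2 in vehicle. These splits by array number and treatment were chosen after seeing the data.

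**Figure D4:**
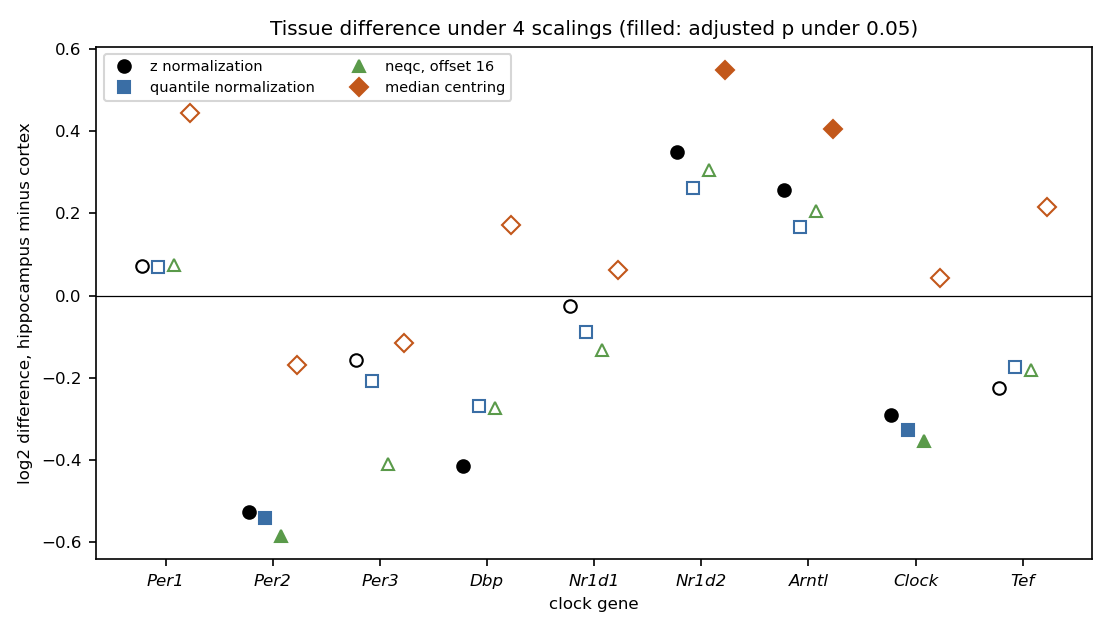
Hippocampus minus cortex difference of the brightest probe of each clock gene (log2, vertical axis) under 4 ways of scaling the 12 arrays; filled symbols have an adjusted p under 0.05 in limma. Per2 lies below 0 and Nr1d2 and Arntl above 0 under all 4, while Dbp, Nr1d1, Clock and Tef change side under median centring.

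The wider clock pathway was described through 23 further genes, 21 of them on the array and 14 tested in at least 1 tissue. Between AMI and vehicle, 0 passed an adjusted p of 0.05 and 0 an unadjusted p of 0.05 in limma in either tissue. The median differences were 0.025 in the hippocampus and -0.021 in the cortex, beside 0.013 and 0.023 over all tested probes. In the cortex the groups lay apart in 1 gene, Npas2, which can stand in for Clock and was at -0.16 (SE 0.10). Of all tested cortical probes, 4.13% lay apart downward.

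Between tissues, 5 of these 14 genes were lower in the hippocampus and 1 higher at an adjusted p under 0.05. That share is near the 43.1% of all probes called in this comparison, so the values below describe single genes and not the pathway. Rora, an activator of Arntl, ranged from 1.20 to 1.49 in the hippocampus and from 1.99 to 2.40 in the cortex, a difference of -0.87 (adjusted p = 2.73e-06). Csnk1e, a kinase that marks PER proteins for degradation, ranged from 3.23 to 3.44 against 3.96 to 4.12, a difference of -0.73 (adjusted p = 1.65e-06). Of the 14 genes, 4 lay lower in the hippocampus without overlap (Rora, Csnk1e, Npas2 and Rorb) and 1 lay higher (Nampt). Over all probes 22.3% lay apart in either direction, and 0 of the 12 tested probes of the core genes did.

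Npas2 was lower by -0.54 (adjusted p = 5.69e-05), Rorb, another ROR receptor, by -0.37 (adjusted p = 0.000642), and Cry2, the second Cryptochrome, by -0.31 (adjusted p = 0.0145). Cry2 was thus measurable where Cry1 was not, with levels of 1.68 to 1.86 in the hippocampus and 1.85 to 2.44 in the cortex. Nampt, which makes NAD from nicotinamide and is itself a target of the clock, was higher in the hippocampus by 0.40 (adjusted p = 0.00124).

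Genes that share an input with the Period genes were counted in the same comparison, in which 43.1% of all probes were called. Of 6 immediate early genes tested, Egr1 (-1.18), Dusp1 (-1.02) and Fos (-0.91) were lower in the hippocampus at an adjusted p under 0.05, and 0 were higher. Of 7 glucocorticoid-induced genes, Fkbp5 was higher (0.81) and Tsc22d3 (-0.47), Pdk4 (-0.31) and Cdkn1a (-1.05) were lower. The part of either group in the tissue differences of Per1 and Per2 was not tested.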

How the data were processed

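Per the file headers, the authors deposited linear intensity values, the average over the beads of a probe, to which no background subtraction or normalization had been applied. Beside each intensity the authors deposited the software's detection p-value. The submitters' notes name BeadStudio 3.4, and the header of the cortical table a GenomeStudio module, version 1.1.1. Here the intensities were taken to log2, and within every array the mean was subtracted and the SD divided out (the z normalization of the methods). The mean array SD, 1.60, then restored a log2 scale. A probe entered the tests of a tissue where its detection p-value was at most 0.05 on 3 or more of the 6 arrays. Tests used limma 3.58.1 (lmFit, eBayes) in R 4.3.3 with Benjamini-Hochberg adjustment over every tested probe, and were checked on simulated data. The probe of highest mean signal represented a gene. Between 49.0% and 51.7% of probes were detected per array, and undetected ones had median signals of 52.2 to 73.2. The number of arrays limits the precision. Alternatives were quantile normalization, median centring, neqc, other detection filters, trended variances, a replicate block, the t-test and cutoffs of the methods, and leaving out arrays. The main tests used no pairing. Hippocampal AMI and vehicle arrays of one number deviated together (correlations 0.61, 0.30 and 0.29). In the block alternative these numbers were therefore taken as pairs, from the data and not from the labels. Cortical ones (-0.061, 0.33 and 0.33) did not deviate together in every pair and were not taken as pairs. The p-values with the block are descriptive only in both tissues. All probes of the 10 genes are accounted for, while other pathway genes and marker lists are given by counts. The members and lists were chosen with earlier results of these data known. Some genes of these lists are not reported here.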

Additional observations from a re-analysis of the deposited data

How the results depend on the processing

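The counts of clock probes past the threshold stayed at 0 for AMI minus vehicle in both tissues and for the interaction under every alternative run, the replicate block (0), the methods' t-test and the methods' cutoffs included. The block changed no call in those comparisons. For hippocampus minus cortex the 6 calls became 3 under quantile normalization, 2 under median centring, 3 under neqc, 3 without the hippocampal arrays numbered 1, 0 with AMI arrays only and 2 with vehicle arrays only, these last 3 being splits chosen after seeing the data. The replicate block gave 4 there, with Arntl at an adjusted p of 0.0584 and Clock at 0.0513, and leaving out 1 array gave 4 to 6.

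Directions that turned were all of differences not called by the main test, except Dbp and Clock under median centring. Median centring gave 0.024 for Per1 and 0.047 for Dbp in the hippocampus, 0.11 for Dbp in the cortex, and between tissues 0.17 for Dbp, 0.061 for Nr1d1, 0.043 for Clock and 0.22 for Tef. Cortical Dbp was also 0.055 under quantile normalization and 0.056 under neqc. Between tissues Nr1d1 was 0.039 with AMI arrays only and Per1 -0.13 with vehicle arrays only. Without the hippocampal arrays numbered 1, the interaction was 0.0072 for Nr1d2 and 0.012 for Clock. When single arrays were left out, hippocampal AMI minus vehicle ranged from -0.20 to 0.055 for Per1, -0.021 to 0.30 for Nr1d2, -0.059 to 0.12 for Arntl, -0.059 to 0.15 for Clock, -0.20 to 0.043 for Nr1d1, -0.35 to 0.073 for Tef and -0.17 to 0.015 for Dbp. In the cortex it ranged from -0.29 to 0.056 for Per2, -0.28 to 0.21 for Per3, -0.23 to 0.22 for Dbp and -0.013 to 0.15 for Arntl. The interaction ranged from -0.13 to 0.29 for Tef, -0.19 to 0.13 for Nr1d2, -0.15 to 0.053 for Arntl, -0.14 to 0.070 for Clock and -0.31 to 0.13 for Dbp. Hippocampus minus cortex ranged from -0.10 to 0.039 for Nr1d1 and from -0.025 to 0.17 for Per1. The cause was not tested. Without background subtraction, the ratios of dim probes such as Per3 are compressed.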
